A study of Homo sapiens with 6 samples.

Results

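POLDIP2 and 9 other genes were examined in the retinal pigment epithelial (RPE) cell line ARPE-19, before and after editing of POLDIP2. The 9, called partners here, are genes of the DNA polymerase machinery and POLDIP3, which encodes a separate polymerase delta interacting protein. The 10 genes were taken by name, namely POLDIP2, POLDIP3, POLD1, POLD2, POLD3, POLD4, PCNA, PRIMPOL, POLH and REV1, out of 37902 genes in the table, and all 10 passed the filter on low values that 14684 genes passed. ARPE-19 is an established human line, and WT denotes its parental cells. To obtain the POLDIP2 KO line, these cells were transduced with a lentivirus for SpCas9 plus a guide against the coding sequence of POLDIP2. The cells were selected with puromycin and expanded, and the methods describe no step that isolates single clones, so the line may hold cells with different edits. The methods describe no virus or selection for the WT cells, so loss of POLDIP2 and the transduction and selection cannot be told apart. RNA was taken at day 3 under regular maintenance from 3 biological replicates of each line, which gave 6 libraries.

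The protein encoded by POLDIP2 was first found as a partner of DNA polymerase delta, the enzyme that copies the lagging strand and fills gaps during repair. Polymerase delta works while it is held on DNA by PCNA, a ring-shaped clamp, and POLDIP2 binds both the POLD2 subunit and PCNA. POLDIP2 is also known to stimulate PrimPol, a primase that restarts copying beyond a damaged base, and to act with the translesion polymerases, which copy damaged bases directly. Cells of the RPE hardly divide in the eye, whereas ARPE-19 cells cycle in culture.

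The table held between 31532797 and 45795509 recovered reads per library, and its values are normalised counts, that is gene counts divided by a size factor of the library. Among the members the fewest recovered reads were 238, of PRIMPOL in POLDIP2 KO replicate 1. The exact 95% Poisson interval for them is 209 to 270 reads and covers counting error only. Of 15 RPE markers, RPE65 and TTR had no read in any library and TYR had at most 3. KRT8 and KRT18 were abundant, and RDH10, RDH11, MITF and OTX2 averaged 5778, 4205, 3831 and 762 normalised counts in WT. BEST1, RDH5, SERPINF1, PMEL, RLBP1 and TYRP1 were lower, at WT means of 333, 265, 126, 84.7, 43.3 and 12.2. The keratins, RDH10, RDH11 and the pigment cell regulator MITF were thus present, with low levels of other RPE markers and without the visual cycle enzyme RPE65. Of the 12 RPE markers tested, 5 were higher and 7 lower in POLDIP2 KO. RDH11 and SERPINF1 lay below all WT libraries in every POLDIP2 KO library (limma adjusted p = 0.687 and 0.822), as did 5.44% of all tested genes. The summed level of the 5 immune markers was 3.78 to 39.7 normalised counts in WT and 15.9 to 20.9 in POLDIP2 KO, with CD3E at 0 in all libraries and PTPRC at 0 in WT and at most 7 reads in POLDIP2 KO. The 7 fibroblast markers summed to 2142 to 6813 in WT and 2086 to 14359 in POLDIP2 KO, highest in replicate 1 of both lines, and PDGFRB and COL1A1 made up most of it. COL1A1 was higher in POLDIP2 KO in every number, by 1.70, 1.24 and 1.53 on the log2 scale (limma adjusted p = 0.981), while the lines overlapped. Of the 5 fibroblast markers tested, 4 were higher and 1, THY1, was lower, and their median log2 fold change of 1.49 is that of COL1A1 itself. In replicates 1, 2 and 3 of POLDIP2 KO, COL1A2 had 614, 0 and 2 normalised counts and COL3A1 had 124, 18 and 5. The 4 endothelial markers summed to 35.5 to 199 in WT and 40.7 to 137 in POLDIP2 KO, with CDH5 at 1 read in 1 library and 0 in the others. By limma on all tested genes, no gene of these 4 marker lists had an adjusted p value under 0.05, and their part in the results was not tested.

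POLDIP2 was lower in POLDIP2 KO and was the only one of the 10 genes called. Its gene, ENSG00000004142, occupies positions 28346633 to 28357527 of chromosome 17 in GRCh38 (minus strand), and its canonical transcript has 11 exons and 2670 bases, of which 1104 are coding. Its normalised counts were 3919, 4827 and 4798 in replicates 1, 2 and 3 of WT, and 1063, 1248 and 1143 in those of POLDIP2 KO. All 3 POLDIP2 KO libraries lay far below all 3 WT libraries. By limma the difference was -1.97 on the log2 scale (95% confidence interval -2.26 to -1.67, adjusted p = 0.00961), so POLDIP2 RNA in the knockout line was between 0.208 and 0.314 of the WT level by this interval. In bulk RNA, fewer cells that express a gene and less of its RNA per cell cannot be told apart. Of all tested genes 0.17% had an adjusted p value under 0.05, 0.0885% lower and 0.0817% higher in POLDIP2 KO, or 0.204% with the replicate number as a block, and the libraries of POLDIP2 KO lay below all those of WT for 5.44%. Same-numbered libraries differed by -1.88, -1.95 and -2.07 on the log2 scale in replicates 1, 2 and 3, a range narrower than that of any other member apart from POLDIP3. The exact two-sided permutation test, whose smallest p value for lines of this size is 0.1, gave that value. Without WT replicate 2 or 3 or POLDIP2 KO replicate 2 or 3, the limma adjusted p value of POLDIP2 was 0.0529, 0.0643, 0.0809 and 0.0746, with log2 fold changes from -2.03 to -1.92. By limma 0 genes of the whole table were called in these 4 fits, and 693 to 903 had an unadjusted p value under 0.05. POLDIP2 shares 377 bases with TNFAIP1, a gene on the opposite strand, which stood at 4810 ± 686 normalised counts in the WT libraries and at 4752 ± 1077 in those of POLDIP2 KO (mean ± SD of n = 3 per line).

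The region in front of the transcription start of POLDIP2 is shown beside that of PCNA, because one is the edited gene and the other the member with the highest level per length. Both are the 250 bases before the start on the minus strand, from RefSeq on GRCh38.p14, written 5′ to 3′, on chr17:28357528-28357777 and chr20:5126623-5126872. Capitals mark CCAAT on either strand and, in PCNA, a word of the kind bound by E2F factors, which drive S phase genes.
POLDIP2: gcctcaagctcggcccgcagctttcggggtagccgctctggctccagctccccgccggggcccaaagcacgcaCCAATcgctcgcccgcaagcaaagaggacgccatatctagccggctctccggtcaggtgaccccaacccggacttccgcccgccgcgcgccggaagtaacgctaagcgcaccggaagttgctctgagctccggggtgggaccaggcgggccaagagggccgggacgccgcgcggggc
PCNA: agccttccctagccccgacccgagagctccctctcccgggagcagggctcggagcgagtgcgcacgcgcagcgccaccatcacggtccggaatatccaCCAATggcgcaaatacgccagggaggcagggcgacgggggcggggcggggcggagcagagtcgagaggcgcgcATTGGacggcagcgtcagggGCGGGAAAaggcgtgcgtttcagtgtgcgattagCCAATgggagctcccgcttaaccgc
The set searched for E2F was TTTCCCGC, TTTGGCGC, TTTCGCGC and TTTGCCGC on both strands, and the match in PCNA is GCGGGAAA, the reverse complement of the first. PCNA was the only 1 of the 9 members with a RefSeq promoter that held such a word, which 2.79% of 35116 promoters of this length hold. POLD3 had no entry. The GC box GGGCGG, on either strand, was present in 9 of 9 members against 42.6% of all promoters, and the TATA word TATAAA in 0 of 9 against 10.7%. CCAAT was present in 4 of 9 against 32.0%, namely POLDIP2, POLD2, POLD4 and PCNA. The GC content was 71.2% in POLDIP2, 68.4% in PCNA, 80.8% in PRIMPOL and REV1 and 54% in POLDIP3, beside a median of 58% over all promoters. The windows of 8 members were richer in G and C than that median, no share was adjusted for it, and the matches describe letters and no factor.

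**Figure D1:**
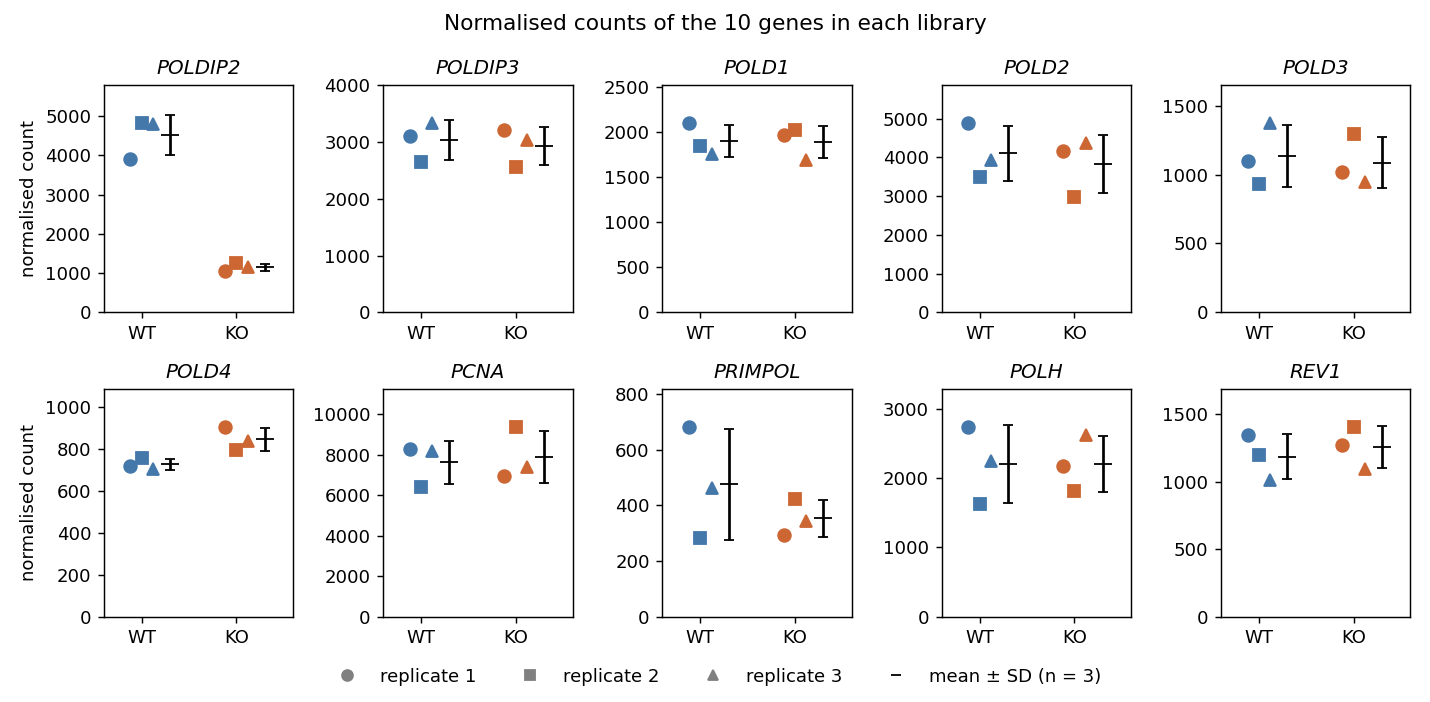
Normalised counts of the 10 genes in each library (vertical axes from 0; circles, squares and triangles are replicates 1, 2 and 3; bars are mean ± SD, n = 3). POLDIP2 falls from 3919 to 4827 in WT to 1063 to 1248 in POLDIP2 KO, POLD4 is separated by a small gap, and the other 8 genes overlap between the lines.

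The other 9 genes did not pass the test. None of them had an adjusted p value under 0.05, the lowest being 0.925, and 0 had an unadjusted p value under 0.05, which 6.48% of all tested genes had. The edgeR quasi-likelihood test and DESeq2 on the recovered reads, both chosen with the data in view, also called 0 of the 9, while calling 0.116% and 1.9% of all genes. A p value that misses the threshold does not show an equal level, so the intervals were read instead. For 8 of the 9 genes the 95% confidence interval of the log2 fold change lay within a 1.5-fold change in either direction (0.585 on the log2 scale), a property shared by 47.5% of all tested genes. PRIMPOL was the exception. The share of 47.5% was not matched to these genes for level. The median of the 9 was -0.00564 on the log2 scale, beside -0.000288 over all tested genes. With each of the 6 libraries left out in turn, between 5 and 6 of the 9 intervals stayed within that limit, and without both libraries numbered 1 it was 4. With all 6 libraries but eBayes without trend it was 6. For these fits the share of intervals over all tested genes is not given here. PRIMPOL had an unadjusted limma p value under 0.05 without WT replicate 2, the 1 alternative in which a partner did. In that fit 862 of all tested genes had one.

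**Figure D2:**
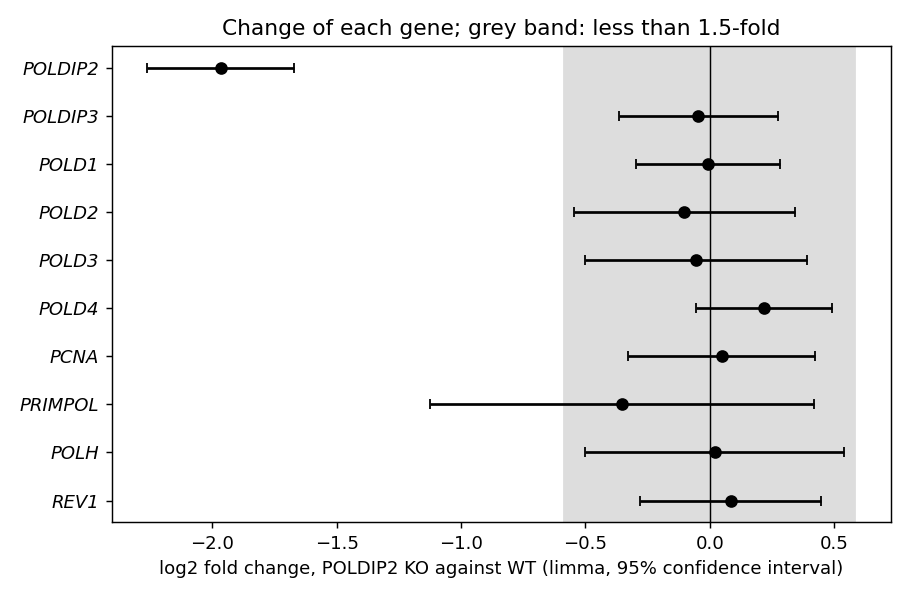
Log2 fold change of each gene in POLDIP2 KO against WT with its limma 95% confidence interval (points and bars, n = 3 libraries per line); the grey band spans changes of less than 1.5-fold. POLDIP2 lies at -1.97, 8 genes have intervals inside the band, and the interval of PRIMPOL extends to -1.13.

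The 4 subunits of polymerase delta were taken first. POLD1, the catalytic subunit with the proofreading exonuclease, lies on chromosome 19 (50384204 to 50418018, plus strand). Its normalised counts were 2104, 1847 and 1755 in replicates 1, 2 and 3 of WT, and 1970, 2023 and 1692 in POLDIP2 KO. The ranges of the lines nearly coincided, and the log2 fold change was -0.01 (95% confidence interval -0.30 to 0.28, limma adjusted p = 0.9998). Its POLDIP2 KO mean was 0.996 of its WT mean. A same-strand gene model that overlaps it, ENSG00000142539, is listed at 0 in every library.

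POLD2, the accessory subunit that POLDIP2 binds, lies on chromosome 7 (44114631 to 44124358, minus strand). It had 4889, 3497 and 3918 normalised counts in replicates 1, 2 and 3 of WT, and 4164, 2983 and 4357 in POLDIP2 KO. Replicate 2 was the lowest library in both lines, and the lines overlapped. POLD2 differed by -0.10 on the log2 scale (95% confidence interval -0.55 to 0.34, limma adjusted p = 0.9998).

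POLD3, the subunit that carries a PCNA-binding tail and is shared with polymerase zeta, lies on chromosome 11 (74493851 to 74669117, plus strand). Its counts were 1098, 928 and 1375 in replicates 1, 2 and 3 of WT, and 1019, 1294 and 944 in POLDIP2 KO. Replicate 2 was lowest in WT and highest in POLDIP2 KO. POLD3 differed by -0.06 on the log2 scale (95% confidence interval -0.50 to 0.39, limma adjusted p = 0.9998).

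POLD4, the smallest subunit, which cells are known to degrade after DNA damage, lies on the same chromosome (67350772 to 67356972, minus strand). It had 717, 756 and 704 normalised counts in replicates 1, 2 and 3 of WT, and 903, 795 and 835 in POLDIP2 KO. It was the 1 partner whose libraries did not overlap, all POLDIP2 KO libraries being above all WT libraries, as for 5.46% of all tested genes (10.9% in either direction). The difference was small, from 725 ± 26.9 to 844 ± 54.4 (mean ± SD of n = 3 per line), which is 0.22 on the log2 scale (95% confidence interval -0.06 to 0.49, limma adjusted p = 0.925). Its spread between replicates was also small, with a pooled SD of 0.0752 on the log2 scale, and 4.32% of all tested genes had a smaller one. POLD4 shares 5401 bases on its own strand with the protein-coding gene model ENSG00000256514, so the counting could have divided reads between them. That model had 454, 674 and 577 normalised counts in replicates 1, 2 and 3 of WT, and 715, 640 and 810 in POLDIP2 KO, with overlap between the lines (log2 fold change 0.35, limma adjusted p = 0.908). Added together, both gave 1294 ± 129.7 in WT and 1566 ± 114 in POLDIP2 KO, without overlap, a difference of 0.28 on the log2 scale at the smallest p value the exact permutation test allows, 0.1.

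PCNA, the clamp, lies on chromosome 20 (5114953 to 5126626, minus strand). Its normalised counts were 8305, 6390 and 8180 in replicates 1, 2 and 3 of WT, and 6952, 9366 and 7370 in POLDIP2 KO. The lines overlapped, with the lowest and the highest value both in libraries numbered 2. Its log2 fold change was 0.05 (95% confidence interval -0.33 to 0.43, limma adjusted p = 0.9998), positive with all libraries and -0.07 or -0.08 without replicate 2 of WT or of POLDIP2 KO. Annotated pseudogene copies could take reads from PCNA, POLD2 and POLH, but the 5 that the table names had at most 1 read in any library.

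The bypass enzymes were next. PRIMPOL, which encodes PrimPol, lies on chromosome 4 (184649667 to 184694963, plus strand). It had 681, 282 and 462 normalised counts in replicates 1, 2 and 3 of WT, and 293, 423 and 343 in POLDIP2 KO. WT spanned 2.42-fold, so that the lowest and the highest library were both WT and enclosed all POLDIP2 KO libraries. PRIMPOL averaged 475 ± 199.9 over the WT libraries and 353 ± 65.9 over those of POLDIP2 KO (mean ± SD of n = 3 per line). For PRIMPOL the log2 fold change was -0.35, and its 95% confidence interval from -1.13 to 0.42 reached beyond a 1.5-fold change on the lower side only. Without WT replicate 2 it was -0.68 (limma adjusted p = 0.803), without WT replicate 1 it was -0.05 and without both libraries numbered 1 it was 0.08, so the value rested on which WT library was present. PRIMPOL had the widest spread of the 10 genes, a pooled SD of 0.488 on the log2 scale, above that of 80.5% of all tested genes. It overlaps CENPU on the opposite strand.

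POLH encodes polymerase eta, which copies ultraviolet-damaged thymines and is lost in a variant form of xeroderma pigmentosum, and lies on chromosome 6 (43576185 to 43620523, plus strand). Its counts were 2734, 1618 and 2244 in replicates 1, 2 and 3 of WT, and 2174, 1818 and 2616 in POLDIP2 KO. Replicate 2 was the lowest in both lines and the means were nearly equal, 2199 and 2203. On the log2 scale POLH differed by 0.02 (95% confidence interval -0.50 to 0.54, limma adjusted p = 0.9998). It shares 15208 bases with GTPBP2 on the opposite strand. The library kit keeps the strand, and whether the counting used it is not given in the sources used here.

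REV1, a deoxycytidyl transferase that also gathers the other translesion polymerases, lies on chromosome 2 (99400475 to 99490035, minus strand). It had 1351, 1198 and 1015 normalised counts in replicates 1, 2 and 3 of WT, and 1272, 1407 and 1093 in POLDIP2 KO. The lines overlapped, with replicate 3 lowest in each. REV1 differed by 0.08 on the log2 scale (95% confidence interval -0.28 to 0.45, limma adjusted p = 0.9998).

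POLDIP3 encodes a separate polymerase delta interacting protein that also binds spliced mRNA and S6 kinase, and lies on chromosome 22 (42583721 to 42614962, minus strand). Its normalised counts were 3110, 2641 and 3336 in replicates 1, 2 and 3 of WT, and 3208, 2565 and 3030 in POLDIP2 KO. Replicate 2 was again lowest in both lines. The log2 fold change was -0.05 (95% confidence interval -0.36 to 0.27, limma adjusted p = 0.9998), so the loss of POLDIP2 RNA came with no called change of this namesake. POLDIP3 shares 31127 bases on its own strand with the gene model ENSG00000289517. That model is absent from the genes with deposited values, so no separate count of it could be set beside POLDIP3. How reads from the shared bases were assigned was not tested.

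Levels were compared between genes per kilobase of the canonical transcript in GENCODE release 44. In WT the order was PCNA with 5976 ± 839 normalised counts per kilobase, POLD2 with 2549 ± 444, POLDIP2 with 1691 ± 193, POLDIP3 with 901 ± 105, POLD1 with 554 ± 52.6 and POLD4 with 428 ± 15.9 (mean ± SD, n = 3 libraries). Each of these 6 lay above the next gene in the order in all 3 libraries, without overlap. POLD3, POLH, REV1 and PRIMPOL followed with means of 299, 263, 251 and 219 normalised counts per kilobase, and each overlapped with the next. Within polymerase delta, whose subunits join 1 to 1, the level per kilobase of POLD2 thus exceeded those of POLD1, POLD4 and POLD3 in all 3 WT libraries.

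By canonical length, POLDIP2 was at rank 3 in WT and rank 6 in POLDIP2 KO. Its 431 ± 34.8 normalised counts per kilobase (mean ± SD, n = 3 libraries) placed it between POLD4, at 499 ± 32.1, and POLD3, at 287 ± 48.7, without overlap with either. The reduced POLDIP2 level was therefore still above those of POLD3, REV1, POLH and PRIMPOL in every library of the line. With the union of all exons as the length, 2 of the 10 genes kept their WT rank, PCNA at rank 1 and POLD1 at rank 5, and POLDIP2 went from rank 2 in WT to rank 4 in POLDIP2 KO, between POLD2 and POLD1. POLD2 moved from rank 2 to rank 4 in WT, its union of exons being 8005 bases against 1609 in the canonical transcript.

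**Figure D3:**
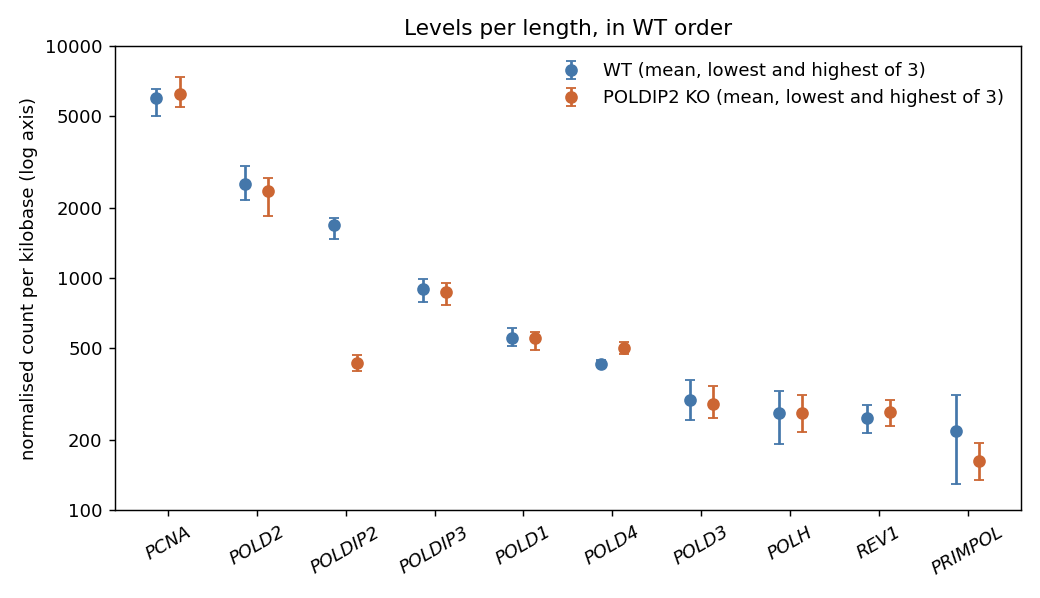
Normalised counts per kilobase of canonical transcript for the 10 genes, in the order of the WT means (log axis; points are means, bars run from the lowest to the highest of 3 libraries). POLDIP2 drops from 1691 in WT to 431 in POLDIP2 KO, between POLD4 and POLD3, and PCNA stays highest.

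By replicate number, the difference between the lines held its sign in all 3 numbers for 2 genes, POLDIP2, lower in 3 of 3, and POLD4, higher in 3 of 3. The libraries of the lines did not overlap for either gene, so any pairing of libraries gives the same sign. For POLD4 the differences on the log2 scale were 0.33, 0.07 and 0.25 in numbers 1, 2 and 3. PCNA differed by -0.26, 0.55 and -0.15, and POLD3 by -0.11, 0.48 and -0.54. PRIMPOL differed most between numbers, by -1.22, 0.58 and -0.43. For PCNA, POLD3 and PRIMPOL, replicate 2 was the lowest library of WT and the highest of POLDIP2 KO. POLDIP3, POLD2 and POLH had their lowest library in replicate 2 of both lines. WT replicate 2 was the lowest WT library for 6 of the 10 genes.

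**Figure D4:**
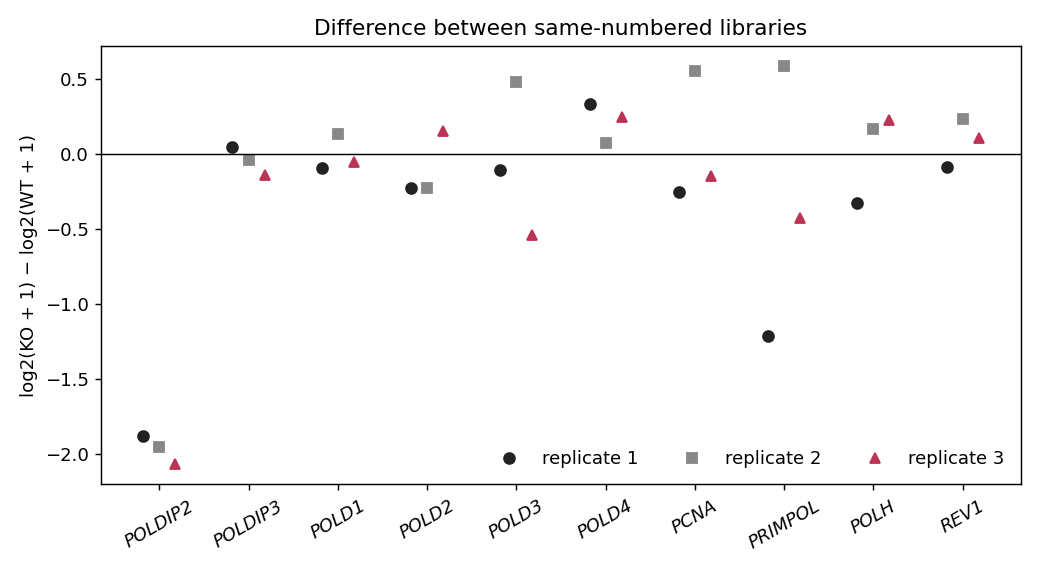
Difference between same-numbered libraries, log2(POLDIP2 KO + 1) minus log2(WT + 1), for each gene (circles, squares and triangles are replicates 1, 2 and 3). POLDIP2 lies near -2 in all 3 numbers, POLD4 is above 0 in all 3, and PCNA, POLD3 and PRIMPOL are above 0 in replicate 2 alone.

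Proliferation markers, genes of S phase and mitosis, followed some of the same libraries. All 20 were lowest in replicate 2 among the WT libraries, and 14 of the 20 were highest in replicate 2 among the POLDIP2 KO libraries. Their summed level was 125192, 88750 and 131098 normalised counts in replicates 1, 2 and 3 of WT, and 92666, 108845 and 101344 in POLDIP2 KO. PCNA, POLD3, PRIMPOL, POLDIP3, POLD2 and POLH were thus lowest in the WT library where these markers were lowest. In POLDIP2 KO, replicate 2 was the highest library for PCNA, POLD3 and PRIMPOL and the lowest for POLDIP3, POLD2 and POLH. The part of proliferation in the values of these genes was not tested. Over the list of markers, 18 of 20 were lower in POLDIP2 KO by the fitted means, with a median log2 fold change of -0.15, and 0 were called. Between same-numbered libraries the count turned, with 0, 18 and 0 of the 20 higher in POLDIP2 KO in replicates 1, 2 and 3. The smallest p values belonged to MCM4 (log2 fold change -0.57, limma adjusted p = 0.574) and MCM5 (-0.37, limma adjusted p = 0.776), subunits of the replicative helicase. MCM4 was the 1 marker of the 20 below all WT libraries in every POLDIP2 KO library, as were 5.44% of all tested genes. It had 6791, 8741 and 7173 normalised counts in POLDIP2 KO against 9978, 9522 and 14719 in WT.

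The genes whose pattern over the 6 libraries was most like that of PCNA were FARP2, FEN1 and DCLRE1B, at Pearson correlations of 0.984, 0.977 and 0.976 on log2(normalised count + 1). FEN1, the nuclease that trims Okazaki fragments on PCNA, had 4410, 3189 and 4362 normalised counts in replicates 1, 2 and 3 of WT, and 3400, 4659 and 3718 in POLDIP2 KO, again lowest and highest in replicate 2. For POLDIP2 they were PLAAT1 (0.992), CCDC88B (0.9898) and ESRP2 (0.9896), with log2 fold changes of -0.87, -0.74 and -2.64 and limma adjusted p values of 0.291, 0.292 and 0.0204. These correlations describe 6 libraries in 2 lines scaled to one another, and the highest over all tested genes were taken.

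The other genes of the pathway were taken from 11 lists of replication, repair and partner genes, which hold 68 genes beside the members, and polymerase delta itself as the list above. All 68 passed the filter. None was called in either direction and 0 had an unadjusted p value under 0.05, against 6.48% of all tested genes. The tests with edgeR and DESeq2 on the recovered reads called 0 as well. The number with an unadjusted p value under 0.05 was 2 with the replicate block in limma or edgeR, 3 without WT replicate 2 or POLDIP2 KO replicate 2, and 1 without WT replicate 1 or both libraries numbered 1. Over all tested genes the limma number was 1625 of 14684 with the block. It was 862 without WT replicate 2, 869 without POLDIP2 KO replicate 2, 905 without WT replicate 1 and 1105 without both libraries numbered 1. The median log2 fold change was -0.03, with a range from -0.38 to 0.43, and 31 genes were higher and 37 lower. Between same-numbered libraries, 19, 53 and 21 of the 68 were higher in POLDIP2 KO in replicates 1, 2 and 3. For 48 of the 68, or 70.6%, the 95% confidence interval lay within a 1.5-fold change, against 47.5% of all tested genes. The latter share covers every gene with a mean of at least 10 and was not matched for level.

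By role, in polymerase alpha and primase, which start each strand, 4 of 4 were lower, with the smallest p values for POLA1 (-0.16) and PRIM1 (-0.29), these and the following values being log2 fold changes. None of these 4 passed, and all 4 were higher in POLDIP2 KO in replicate 2 and lower in replicates 1 and 3. In polymerase epsilon, the leading strand enzyme, 2 of 4 were lower, and POLE4 (0.31) and POLE3 (-0.08) had the smallest p values. Among 9 clamp loaders and unloaders these were DSCC1 (0.43) and RFC3 (-0.17), and the median was -0.03. Among 6 genes of Okazaki fragment maturation they were RNASEH2C (-0.38) and DNA2 (0.15), with a median of 0.01.

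Of the 6 other translesion polymerase genes, 5 were lower, with POLQ at -0.38 (95% confidence interval -0.83 to 0.07, limma adjusted p = 0.887) and POLK at -0.18. Of 12 genes that write, read or remove ubiquitin on PCNA, the switch that brings in POLH and REV1, 6 were higher and 6 lower, with HLTF at 0.22 and UBE2N at 0.14. The 3 subunits of RPA, the single strand binding protein that recruits PrimPol, had a median of 0.02, with RPA3 at -0.20 and RPA1 at 0.13. The repair polymerases POLB and POLL were at 0.12 and -0.05, in a list of 3 with a median of -0.05.

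PrimPol and POLDIP2 are also found in mitochondria, where a separate set of enzymes copies DNA. The 8 genes of mitochondrial replication had a median log2 fold change of 0.02, with SSBP1 at 0.11 and POLG2 at 0.17. The 3 genes of the KCTD13 family, named after another polymerase delta interacting protein, had KCTD10 at -0.07 and TNFAIP1 at -0.03. Of 10 mRNA export and S6 kinase partners of POLDIP3, RPS6KB1 was at -0.18 and EIF4A3 at 0.16, with a median of 0.04. PCNA and POLH are known targets of p53. Of 12 other p53 targets 10 were higher and 2 lower, CDKN1A (-0.05) and FAS (-0.13), with a median of 0.07 and 0 called. Between same-numbered libraries 6, 9 and 6 of the 12 were higher in POLDIP2 KO in replicates 1, 2 and 3. RRM2B (0.40, limma adjusted p = 0.776) and TP53I3 (0.27) had the smallest p values there.

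**Figure D5:**
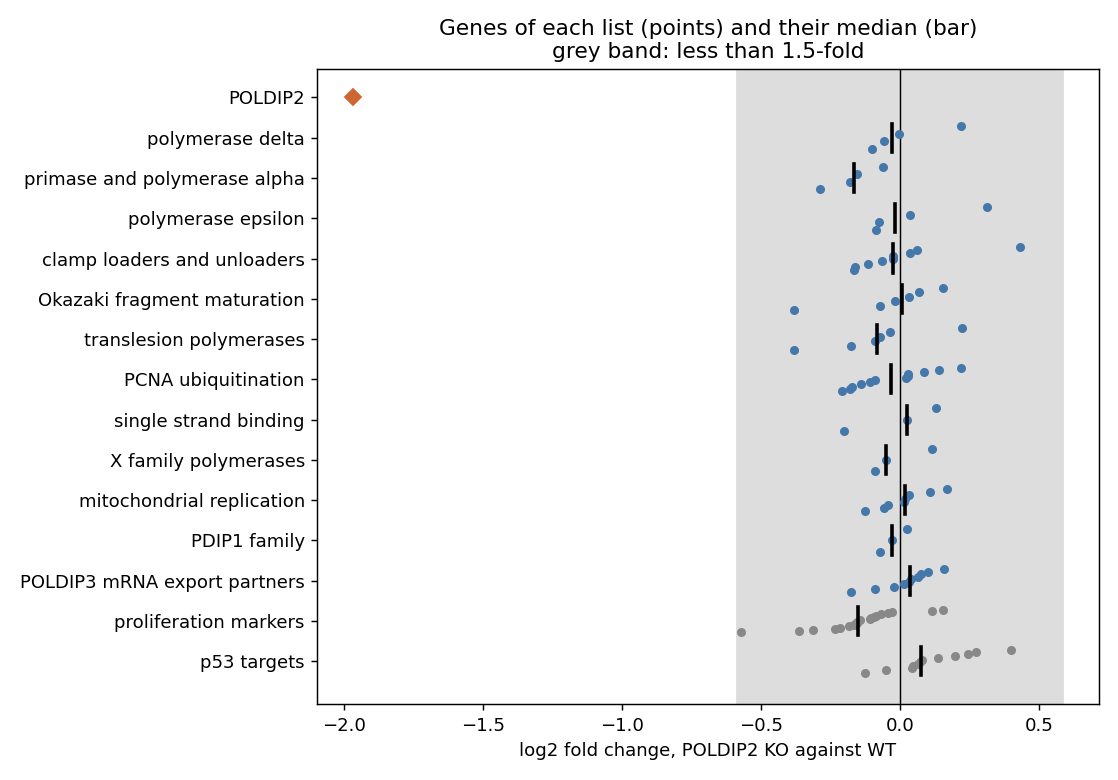
Log2 fold changes in POLDIP2 KO against WT for the genes of each list (points; black bars are medians; grey points are the proliferation and p53 lists; the grey band spans changes of less than 1.5-fold). POLDIP2 stands alone at -1.97, and every listed gene lies between -0.57 and 0.43.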

How the data were processed

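RNA of 3 WT and 3 POLDIP2 KO libraries was analysed from the table deposited for the series. According to the methods, the authors quantified reads against GRCh38 with Salmon 1.8, imported gene values through tximport and scaled them in DESeq2 1.34.0. The deposited signal in each column is the normalised count. All columns were mapped to a sample, so 0 were left out. Dividing a column by its smallest value above 0 gave whole reads within 0.001 for 100% of values; in WT replicate 2 and POLDIP2 KO replicate 3 this step is close to 1. Symbols, positions and lengths came from GENCODE release 44, and the release used by the authors is not given in the sources used here. Promoters came from RefSeq.

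The lines were compared with limma 3.58.1 (R 4.3.3) with trended eBayes. The input was log2(normalised count + 1) of the 14684 genes whose mean reached 10. Benjamini-Hochberg adjustment ran over all of these, at a threshold of 0.05. Adding 1 understates changes of low genes. The replicates are labelled biological, and whether they came from separate cultures is not stated. Alternatives were a pseudocount of 0.5 or 5, a minimum mean of 50 or none, quantile normalised or recentred libraries, eBayes without trend or robust, the replicate number as a block, and each library left out. The tests with edgeR 4.0.16 and DESeq2 1.42.0 on the recovered reads, and the fit without both libraries numbered 1, were chosen after seeing the data. Deviations from the line means correlated at 0.315, 0.137 and 0.129 between same-numbered libraries over 14684 genes, all above the 0.1 set for pairing, and at -0.259 to 0.147 between others, the highest being WT replicate 3 with POLDIP2 KO replicate 2. The pairing is thus a hint from the data and not from the labels, and the intervals given are from the fit without the block. The limma fit was tested on simulated data. The genes named are the 10 members, in each list the genes called and those with the 2 smallest p values, the 3 genes most like POLDIP2 and PCNA, and genes that overlap a member; others were named after their values were seen, and some genes that the rule names are not reported here. The members and lists were chosen with earlier results of these data known.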

Additional observations from a re-analysis of the deposited data

How the results depend on the processing

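POLDIP2 had log2 fold changes from -1.97 to -1.96 in the 9 limma alternatives with all libraries, with limma adjusted p values from 0.00712 to 0.0274, and between -2.07 and -1.91 with 1 library left out, with adjusted p values from 0.025 to 0.0809. With the replicate block, its adjusted p value was 0.0274, 30 genes were called in place of 25, and no call of a member or listed gene changed. The number of members called was 0 to 1 with 1 library left out, and the total of genes called was 0 to 10. The total was 16 with a mean of at least 50, 5 without both libraries numbered 1, 5 with edgeR and the replicate block and 277 with DESeq2, while 0 of the 9 partners and 0 of the 68 listed genes were called in any of the 19 alternatives. With 1 library left out, the uncalled log2 fold changes that changed sign ranged from -0.141 to 0.0484 for POLDIP3, -0.0615 to 0.0738 for POLD1, -0.210 to 0.0689 for POLD2, -0.192 to 0.0918 for POLD3, -0.0811 to 0.134 for PCNA, -0.185 to 0.193 for POLH and -0.0246 to 0.182 for REV1. Without both libraries numbered 1, POLD1 was at 0.0391 and PRIMPOL at 0.0779. POLD4 kept its sign in all alternatives, which its lack of overlap between the lines fixes wherever libraries were only left out. With the union of all exons as the length, 2 of 10 genes kept their rank by level per kilobase. The cause of these shifts was not tested. As to depth, no member rested on fewer than 238 reads in a library.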
